A study of Mus musculus with 4 samples.

Results

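The cell division machinery was followed on 4 cDNA arrays that compared mutant with wild-type mouse embryonic stem (ES) cells. The genes were chosen by a rule on their names, with earlier results of these data known. They are Mki67, the genes whose symbol starts with Mcm, Orc, Rfc, Cdk, Cdc, Cdkn, Bub, Aurk, Plk or E2f followed by a digit or by a letter and a digit, and the cyclins named Ccna to Ccnh, without Cdc42 genes. This gave 61 genes of the 6025 that had a probe annotated with 1 gene, measured by 64 probes. Averages were taken over probes for Cdc37, Cdc37l1 and Cdk6, which had 2 probes each. A rule on names also takes genes outside cell division. Cdcp1 is a membrane protein with CUB domains, Mcm3ap acts in RNA export, and Cdc37 is a partner of the chaperone Hsp90. Aurka and Aurkb fall outside the rule and are counted among the other genes of the pathway.

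Each array carried RNA of 1 mutant line and of wild-type cells in 2 colours. The fosBd/d line is homozygous for an allele from which only ΔFosB is made, a truncated form of the AP-1 subunit FosB, and the fosB-null cells carry a null allele. For each mutant 2 arrays were run, with exchanged dyes. By the series title, all cells, the wild type included, had 72 h without serum and then 4 h with serum, and by the labels no feeder cells were present. The labels name no clone or culture, and whether a pair of swapped arrays shared its RNA is not stated, so p-values measure only array-to-array spread, possibly technical. No probe was named Fosb in the annotation used here, so the altered gene was not analysed here. Pou5f1, Sox2 and Nanog, the defining regulators of ES cells, also had no probe annotated with that gene alone, and the ratios hold no levels from which the presence of a marker could be read.

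Values are log2 ratios as deposited, given as mean ± SD (n = 2 arrays). Every array had a median of 0.00 over its probes, and the SD over probes ranged from 0.436 to 0.824. Which way the ratios run could not be fully settled. Values of exactly 0 carried a minus sign on fosBd/d replicate 1 and fosB-null replicate 2 only, a mark that multiplication by -1 leaves. The arrays with the mutant in the same dye correlated negatively over probes (r = -0.463 for replicate 1 and r = -0.369 for replicate 2 of both mutants). Once those arrays were turned back, r was positive in all 6 pairs, between 0.125 and 0.463. Read by the dye names, a negative fosBd/d value is less RNA in the mutant, which is called likely here, and a negative fosB-null value is more RNA in the mutant. A mutant over wild-type ratio throughout would read fosB-null the other way. The labels also give each dye a colour word that contradicts its usual colour, and read by those words every fosBd/d value would turn.

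Cells divide by passing through a fixed order of steps driven by cyclins and the kinases they activate (Cdk). D-type cyclins with Cdk4 and Cdk6 relieve the block that retinoblastoma proteins place on E2F factors, origin recognition (ORC) and minichromosome maintenance (MCM) proteins license DNA for replication, and cyclin B with Cdk1 starts mitosis. ES cells are known for short gap phases and for high cyclin E activity. Serum, which these cells had received again, is a classical inducer of entry into the cycle.

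In fosBd/d cells most genes of division had no shared sign on the 2 arrays. Those with 1 sign were more often negative, by small amounts, and 1 gene stood far on the positive side. Of the 61 genes, 21 were negative on both arrays (34.4%), where 24.2% of all genes were. Only 4 were positive on both arrays (6.56%), where 25% of all genes were. These 4 were Ccnd2, Ccnf, Cdca7l and Cdkn2b, and the other 36 had opposite signs or an exact 0. The median over the 61 genes was -0.10, beside -0.02 over all genes, and it was -0.07 on replicate 1 and -0.10 on replicate 2. The arrays did not order the members alike. Across the 61 genes, which are not independent replicates, their correlation was r = -0.07, and r = -0.33 without Ccnd2, beside 0.05 over all genes. By size, 0 of the 61 were at least 1.5-fold on the negative side of both arrays (1.18% of all genes), and 1, Ccnd2, was so on the positive side (3.87%). In limma, 0 of the 61 passed at an adjusted p under 0.05, and 0% of all genes did. Unadjusted, 11 of the 61 had a p under 0.05 (18%), beside 19.5% of all genes, so the share at that level was no higher than the background. The count of 11 was 4 without fosBd/d replicate 1, 2 without replicate 2, 1 without fosB-null replicate 1 or without fosB-null replicate 2, and 2 with all arrays and no dye term. Of these 11, 10 had a negative mean and 1 a positive mean, and over all genes the numbers were 433 negative and 739 positive.

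**Figure D1:**
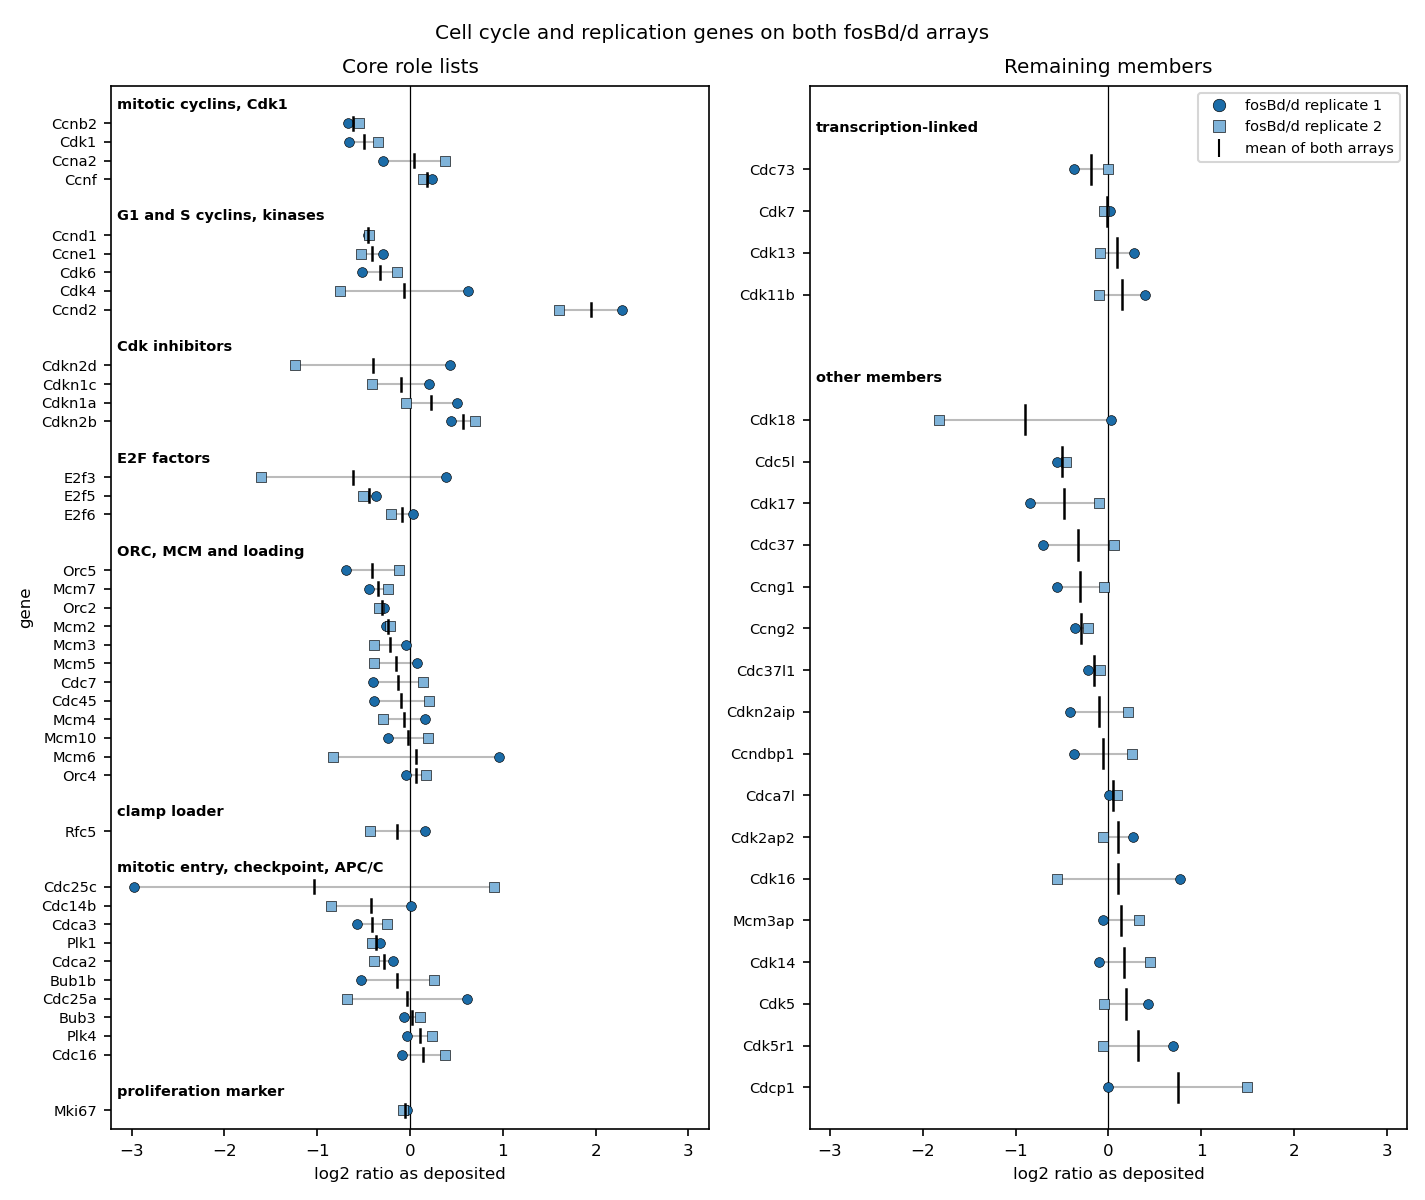
Log2 ratios of the 61 genes on fosBd/d replicate 1 (circles) and replicate 2 (squares), with the mean as a bar, grouped by role. Ccnd2 lies at 2.28 and 1.61, Ccnb2 and Ccnd1 have both arrays below 0 and close together, and genes such as Mcm6 and Cdc25c have arrays on opposite sides.

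Markers of another cell type had values far from 0 on the same arrays. Of 24 listed markers of extraembryonic endoderm, 17 were measured. On both fosBd/d arrays 14 of them were positive (82.4%, beside 25% of all genes) and 0 negative (beside 24.2%). Their means ranged from 0.25 to 2.57 with a median of 1.73. Sox17 (2.83 and -1.95) and Afp (1.05 and -0.29) had opposite signs, so their means describe neither array. Of 15 listed markers of pluripotent cells, 7 were measured, 3 of them negative (42.9%) and 2 positive (28.6%) on each array, with a median of -0.24. At least 1.5-fold negative on both arrays were 2, Alpl (-0.64 and -0.93) and Nr5a2 (-0.94 and -0.71), beside 1.18% of all genes. The 2 positive ones were Utf1 (0.63 and 0.26) and Lin28a (0.43 and 0.36). Of 15 fibroblast markers, 9 were measured, 4 of them positive (44.4%) and 2 negative (22.2%) on each array, with a median of 0.12. The part of such cells in the cell cycle values was not tested. In RNA from a whole culture, fewer cells of a type and less RNA per cell cannot be told apart.

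The measured D-type cyclins, Ccnd1 and Ccnd2, which couple growth signals to the cycle, were split. Ccnd3 had no probe annotated with that gene alone. Ccnd2 had log2 ratios of 2.28 and 1.61 on fosBd/d replicates 1 and 2. Both arrays were far above 0, the mean was 1.95 ± 0.48 or 3.85-fold, and the limma adjusted p was 0.199. Ccnd1 had -0.45 and -0.44, a mean of -0.45 ± 0.01 with an adjusted p of 0.225. Its arrays agreed to within 0.01 in SD, on the side opposite to Ccnd2. Cyclin E1 (Ccne1), the partner of Cdk2 at the start of S phase, had -0.29 and -0.53, so both arrays were below 0. Cdk6, a kinase for D-type cyclins, stood at -0.51 and -0.14, and its probes were -0.53 and 0.07 for the first and -0.50 and -0.35 for the second. The related kinase Cdk4 was at 0.62 on replicate 1 and -0.75 on replicate 2, so its mean of -0.06 ± 0.97 describes neither array.

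Mitotic cyclins and their kinase had a median of -0.23 over 4 genes. On both fosBd/d arrays 2 were negative (50%, beside 24.2% of all genes) and 1 positive (25%, as over all genes). Cyclin B2 (Ccnb2), an activator of Cdk1, had -0.67 and -0.55. It was below 0 on both arrays by more than their spread, with a mean of -0.61 ± 0.09 or 1.53-fold and a limma adjusted p of 0.214. Cdk1 had -0.65 and -0.34, a mean of -0.50 ± 0.22 or 1.41-fold with an adjusted p of 0.218. Cyclin A2 (Ccna2), which serves S phase and early mitosis, had -0.30 on replicate 1 and 0.38 on replicate 2. Cyclin F (Ccnf), which targets proteins for degradation rather than activating a Cdk, lay on the other side with 0.23 and 0.14.

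The promoters of these genes are shown because mitotic genes are known to carry CCAAT boxes, the sites of the factor NF-Y, in front of an element named CHR (cell cycle genes homology region). The stretches are the 150 bases before the start that RefSeq annotates on GRCm38.p6, for the 4 mitotic and replication genes with the lowest fosBd/d mean among those negative on both arrays and having an entry, and for the 2 with the highest mean. Matches were sought on either strand, and one that runs past the end of a stretch, as at -4 in Cdca3, stays in small letters. Capitals mark the other matches, to CCAAT, to the CHR letters TTTGAA and to the E2F letters TTTCCCGC, TTTGGCGC, TTTCGCGC and TTTGCCGC. They are Ccnb2 (chr9:70421555-70421704, minus strand), Cdk1 (chr10:69352913-69353062, minus strand), Cdca3 (chr6:124830026-124830175, plus strand), Orc5 (chr5:22550339-22550488, minus strand), Ccnf (chr17:24251410-24251559, minus strand) and Cdc16 (chr8:13757506-13757655, plus strand).
Ccnb2: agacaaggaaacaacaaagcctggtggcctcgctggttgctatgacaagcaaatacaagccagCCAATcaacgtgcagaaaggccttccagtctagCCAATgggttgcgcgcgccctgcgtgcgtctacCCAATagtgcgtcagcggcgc
Cdk1: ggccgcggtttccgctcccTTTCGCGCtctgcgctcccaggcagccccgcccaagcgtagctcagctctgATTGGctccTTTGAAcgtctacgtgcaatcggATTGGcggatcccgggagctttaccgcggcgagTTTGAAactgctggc
Cdca3: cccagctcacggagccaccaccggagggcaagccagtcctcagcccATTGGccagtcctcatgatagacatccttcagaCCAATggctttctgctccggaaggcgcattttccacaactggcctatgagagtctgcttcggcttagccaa
Orc5: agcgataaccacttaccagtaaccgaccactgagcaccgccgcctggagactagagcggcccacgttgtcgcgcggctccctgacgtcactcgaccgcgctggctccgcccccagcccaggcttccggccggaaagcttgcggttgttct
Ccnf: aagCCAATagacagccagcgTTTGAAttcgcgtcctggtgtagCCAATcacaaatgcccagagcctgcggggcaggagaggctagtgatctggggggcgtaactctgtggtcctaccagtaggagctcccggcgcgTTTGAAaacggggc
Cdc16: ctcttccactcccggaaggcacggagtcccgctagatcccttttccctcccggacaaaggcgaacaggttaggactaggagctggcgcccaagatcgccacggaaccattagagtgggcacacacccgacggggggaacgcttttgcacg

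The CHR match nearest the annotated start is shown as 30 bases each, with the match in capitals. Ccnf, Bub1b and Bub3 of the mitotic lists also held CHR matches but were not negative on both fosBd/d arrays, and are left out. The 4 genes shown are those of the mitotic lists that were negative on both and had a match. Among these 4 the match lay just before the start in Cdk1 and after it in the others. They are Ccnb2 (chr9:70421533-70421562), Cdk1 (chr10:69352910-69352939), Cdca3 (chr6:124830194-124830223) and Plk1 (chr7:122159453-122159482).
Ccnb2: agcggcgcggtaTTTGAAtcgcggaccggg
Cdk1: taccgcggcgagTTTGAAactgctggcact
Cdca3: cgtggagggaagTTTGAAactccgggcttt
Plk1: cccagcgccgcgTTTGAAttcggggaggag

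In the Ccnb2 window the CCAAT matches began at -87, -54 and -21 from the start and the nearest CHR match at 5. Another CHR match of Ccnb2, at -167, lay before all of its CCAAT matches. In Cdk1 a pair of CCAAT matches on the other strand at -80 and -48 preceded the CHR match at -15. A further CHR match of Cdk1, at -71, lay between that pair, and a further CCAAT match lay at -208. Cdca3 had CCAAT matches at -104, -71 and -4 before a CHR match at 31, and Plk1 had 1 at -14 before a CHR match at 31. Ccnf, on the positive side of both fosBd/d arrays, also held CCAAT and CHR matches, so the letters did not separate the sides. Orc5 and Cdc16 had no match to these letters in their windows.

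**Figure D2:**
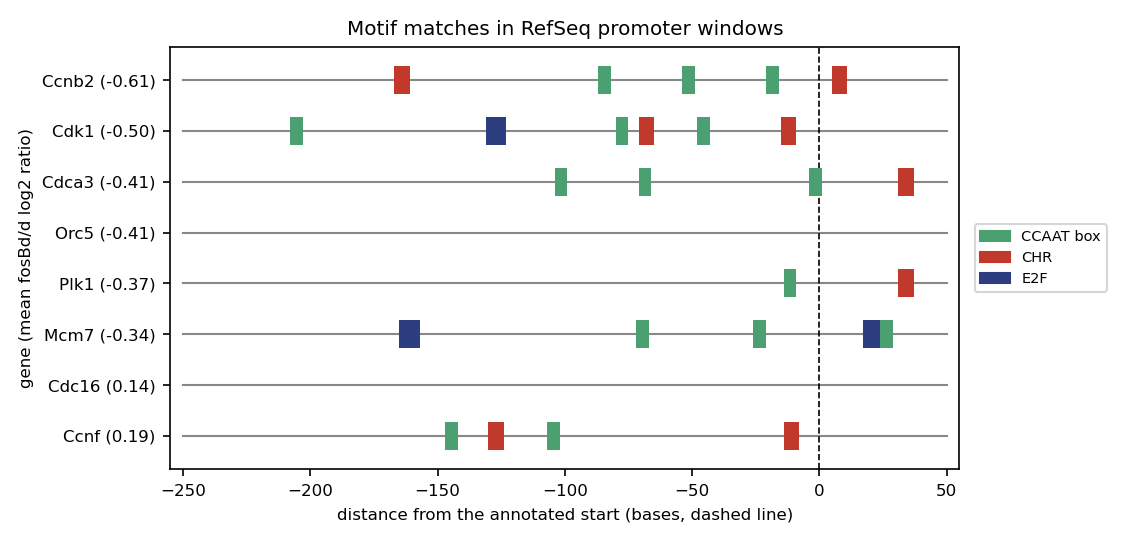
Positions of CCAAT (green), CHR (red) and E2F (blue) matches in RefSeq promoter windows, in bases from the annotated start, for 8 genes ordered by their mean fosBd/d log2 ratio, with only the first listed window of each gene drawn. Mcm7 and Plk1 were added to the 6 genes whose stretches are printed. CHR matches stand near the start of Ccnb2, Cdk1, Cdca3 and Plk1, and of Ccnf, whose mean is 0.19.

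Windows of 300 bases (250 before and 50 after a start) were found for 50 of the 61 genes, 60 windows in all. The genes without an entry were Ccna2, Ccnd1, Ccnd2, Cdc25c, Cdca2, Cdk17, Cdk5, Cdk5r1, Cdkn1c, E2f5 and Mcm4. CHR letters were in 28.3% of the 60 windows, beside 17.9% of the 32851 windows of all genes. CCAAT was in 51.7% beside 37.4%, and the E2F letters were in 11.7% beside 2.26%. The AP-1 letters TGANTCA were in 0 of the 60, beside 7.81% of all windows, which says only that these letters are not in these windows. For the 19 windows of genes negative on both fosBd/d arrays, the shares were 36.8% for CHR, 68.4% for CCAAT and 15.8% for E2F. For the 38 windows of genes with no shared sign they were 21.1%, 42.1% and 10.5%. For the 3 windows of genes positive on both arrays they were 66.7%, 66.7% and 0%, a CHR share above that of the negative set but from few windows. These shares are descriptions and were not tested.

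Genes of mitotic entry, the spindle checkpoint and the anaphase-promoting complex had a median of -0.21 over 10 genes. Among them 3 were negative (30%, beside 24.2% of all genes) and 0 positive (beside 25%) on both fosBd/d arrays. Cdca3, which promotes mitotic entry, had -0.57 and -0.25, and Cdca2, a chromatin-bound phosphatase partner, had -0.18 and -0.39. Plk1, the kinase that drives many steps of mitosis, stood at -0.32 and -0.41, a mean of -0.37 ± 0.07 with a limma adjusted p of 0.269. These were the genes of the list with both arrays below 0. Cdc25c, a phosphatase that activates Cdk1, had the lowest mean of all members, -1.03, but its arrays were at -2.98 and 0.91 and the SD was 2.75. Cdc25a, its relative that acts earlier in the cycle, was at 0.61 and -0.68, and the phosphatase Cdc14b at 0.01 and -0.85. The checkpoint kinase Bub1b was at -0.53 and 0.26, whereas its partner Bub3 lay near 0 on both arrays with -0.07 and 0.11. Plk4, which starts centriole duplication, had -0.04 and 0.24, and the anaphase-promoting complex subunit Cdc16 had -0.09 and 0.38. Mki67, the common marker of dividing cells, was close to 0 on both arrays, with -0.03 and -0.07.

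Replication licensing and origin firing had 12 measured genes, with a median of -0.14. Of these, 5 were negative on both fosBd/d arrays (41.7%, beside 24.2% of all genes) and 0 positive on both (beside 25%). Among the origin recognition subunits, Orc5 had -0.69 and -0.12, Orc2 -0.28 and -0.33, and Orc4 -0.04 and 0.17. Orc2 was the one with close arrays, and its mean was -0.30 ± 0.04 with a limma adjusted p of 0.269. The MCM2-7 proteins form the replicative helicase, and all 6 were measured. Mcm7 had -0.44 and -0.24, Mcm2 -0.26 and -0.21, and Mcm3 -0.04 and -0.39, all below 0. Mcm4 (0.17 and -0.29), Mcm5 (0.08 and -0.39) and Mcm6 (0.96 and -0.83) had replicate 1 above and replicate 2 below 0. Subunits of 1 ring thus had different patterns across the arrays. Mcm10 (-0.24 and 0.19), Cdc45 (-0.39 and 0.21) and Cdc7 (-0.40 and 0.14), the kinase that fires origins, had the reverse order. In Mcm4, Mcm5, Mcm6, Mcm10, Cdc45 and Cdc7 the limma dye coefficient was larger in size than the fosBd/d mean. For Mcm6 it was -1.06 against 0.06. Rfc5, the measured subunit of the clamp loader that places PCNA on DNA, was at 0.16 and -0.43.

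Among the 4 Cdk inhibitors, 1 was positive on both fosBd/d arrays (25%, as over all genes) and 0 negative (24.2% over all genes). Cdkn2b (p15), which blocks Cdk4 and Cdk6 and is known as a TGF-β target, had 0.44 and 0.70. Both arrays were above 0, the mean was 0.57 ± 0.18 or 1.49-fold, and the limma adjusted p was 0.282. Cdkn1a (p21), the p53 target, stood at 0.50 and -0.04, and Cdkn1c (p57) at 0.21 and -0.41. Cdkn2d (p19) was at 0.43 and -1.24, on opposite sides, and its unadjusted p of 0.0323 came with the dye term in the fit. Of the E2F factors, a family with activators of S phase genes such as E2f3 and repressors such as E2f5 and E2f6, E2f5 had -0.37 and -0.51, below 0 on both arrays with a mean of -0.44 ± 0.10 and an adjusted p of 0.245. E2f6 had 0.03 and -0.21, and E2f3 had 0.39 and -1.61, so its mean of -0.61 rests on replicate 2.

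The kinases and factors tied to transcription went both ways, with a median of 0.04 over 4 genes. Cdk11b, a kinase linked to splicing, had 0.39 and -0.10, and Cdk13 had 0.27 and -0.09. Cdc73, a subunit of the PAF1 complex, had -0.38 on replicate 1 and lay just below 0 on replicate 2, and Cdk7, the kinase of TFIIH, had 0.02 and -0.05. Of the 17 remaining members, 5 were negative on both arrays (29.4%, beside 24.2% of all genes) and 1 positive (5.88%, beside 25%). Cdc5l, a splicing factor, had -0.55 and -0.45, a mean of -0.50 ± 0.07 with a limma adjusted p of 0.254. Cdk17 stood at -0.84 and -0.10, the cyclin G genes Ccng1 and Ccng2 at -0.56 and -0.04 and at -0.36 and -0.22. Cdc5l and Ccng2 had close arrays, while Cdk17 and Ccng1 were low mainly on replicate 1. Cdk18 had 0.03 and -1.83. Cdcp1 was listed at exactly 0 on replicate 1 and at 1.49 on replicate 2. The probes of Cdc37 disagreed, at -1.45 and 0.51 for the first and 0.04 and -0.40 for the second.

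Genes of the same pathway that the name rule leaves out also lay more often on the negative side in fosBd/d cells. They too were listed with earlier results of these data known. Of 113 listed, 64 were measured, 25 of them negative and 6 positive on each array (39.1% and 9.38%), against 24.2% and 25% of all genes, and a median of -0.10. In limma 0 of the 64 passed at an adjusted p under 0.05, and at an unadjusted p under 0.05 there were 11 negative and 3 positive, where 19.5% of all genes were called. The 18 replication enzymes had 8 negative and 0 positive on both arrays, and the 28 mitosis genes 11 and 1. The mitosis list held Nusap1, a spindle protein (-0.81 and -0.45), and the centromere proteins Cenpf (-0.50 and -0.47) and Cenpa (-0.48 and -0.45), each below 0 on both arrays. On its other side was Anapc1, a scaffold subunit of the anaphase-promoting complex (0.25 and 0.68). Of the replication enzymes below 0 on both arrays, those farthest from 0 were the helicase subunit Gins4 (-0.18 and -0.73), the polymerase subunit Pold1 (-0.24 and -0.50), the primase subunit Prim1 (-0.47 and -0.21) and the single-strand binding subunit Rpa2 (-0.10 and -0.49). In nucleotide supply, Tyms (-0.51 and -0.27), Dut (-0.41 and -0.32) and Gart (-0.08 and -0.12) lay below 0 and Atic (0.09 and 0.06) above it. The retinoblastoma and checkpoint list was not tilted, with 3 negative and 4 positive of 14. Those of 1 sign farthest from 0 were Gadd45g, a growth arrest gene (1.65 and 0.35), Myc (0.34 and 0.98), the MuvB subunit Lin54 (0.06 and 0.49) and the pocket protein Rbl1 (-1.15 and -0.02).

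**Figure D3:**
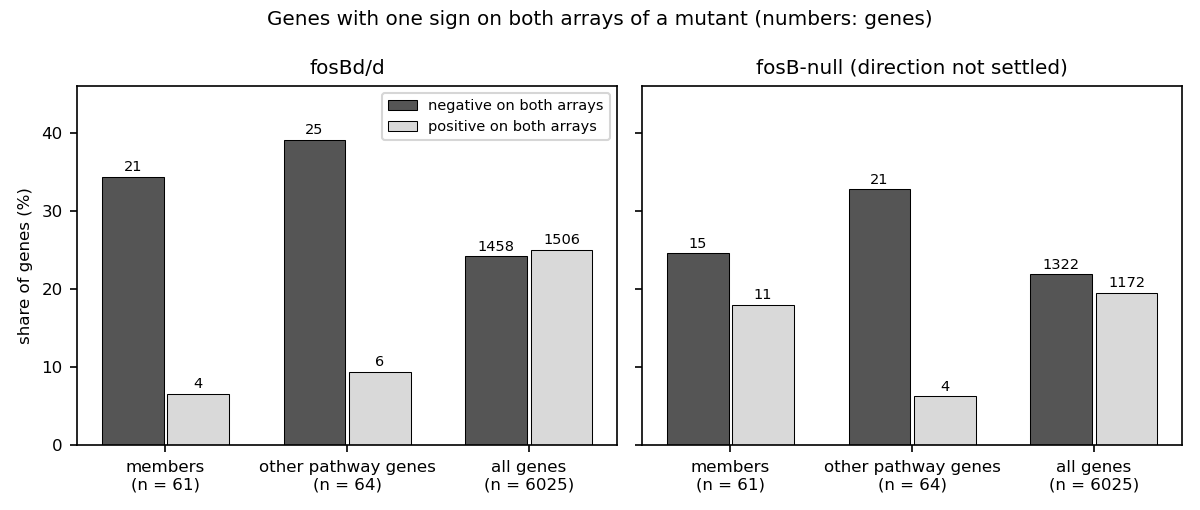
Share of genes, in percent, that were negative (dark) or positive (light) on both arrays of a mutant, for the 61 genes, the other pathway genes and all genes, with the number of genes over each bar. In fosBd/d the dark bars reach 34.4% and 39.1% against 24.2% for all genes, and the light ones 6.56% and 9.38% against 25%.

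In fosB-null cells the same genes, taken as a whole, were nearly balanced. Of the 61, 15 were negative on both arrays (24.6%, beside 21.9% of all genes) and 11 positive on both (18%, beside 19.5%). These shares lay near the background. The balance was not the same within the set. Without the transcription-linked and the remaining members, 12 of 40 were negative on both arrays (30%) and 5 positive on both (12.5%). Of the 21 thus left out, 3 were negative and 6 positive on both. The median over the 61 was -0.01, beside 0.00 over all genes, and took opposite signs on the single arrays, 0.01 and -0.04. With the fosB-null sign turned, the counts and the median change sides. At 1.5-fold on both arrays there were 0 on the negative side (0.564% of all genes) and 0 on the positive side (0.581%). In limma 0 of 61 passed, as did 0% of all genes, and unadjusted 2 (3.28%) had a p under 0.05, beside 6.82% of all genes. Those 2 were Mki67 and Cdc37l1, and the count was 0 or 1 when any of the 4 arrays was left out.

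Mki67 had -0.56 and -0.28 on fosB-null replicates 1 and 2. Both arrays lay below 0, with a mean of -0.42 ± 0.19 or 1.34-fold and a limma adjusted p of 0.618. Cdc37l1, a relative of Cdc37, had 0.35 and 0.78, above 0 on both. Of 10 mitotic entry and checkpoint genes, 6 were negative on both arrays (60%, beside 21.9% of all genes) and 0 positive (beside 19.5%). Plk1 had -0.48 and -0.07, Cdca2 -0.31 and -0.07, and Cdca3 -0.22 and -0.18. The remaining 3 of these 6 were nearer to 0, with means of -0.16 for Cdc25c, -0.08 for Cdc16 and -0.03 for Plk4. Ccnb2, at -0.01 and -0.14, was nearer to 0 than in fosBd/d, and Cdk1 had 0.25 and -0.18.

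The measured D-type cyclins in fosB-null lay, as deposited, on the sides opposite to those in fosBd/d. Ccnd2 had -0.17 and -0.43, below 0 on both arrays, and Ccnd1 had 0.18 and 0.09, above 0 on both. Read by the dye names the fosB-null values turn, and each cyclin would then stand on the same side in both mutants. Ccnf had -0.40 and -0.16. The licensing and firing list held 2 genes below 0 on each array (16.7%, beside 21.9% of all genes) and 2 above 0 (16.7%, beside 19.5%). They were Mcm4 (-0.50 and -0.13) and Mcm7 (-0.02 and -0.29), and Orc4 (0.29 and 0.11) and Cdc7 (0.20 and 0.09). Of the inhibitors, Cdkn1c had 0.03 and 0.50, and the others had opposite signs, as Cdkn2b with 0.76 and -0.31. Of the E2F factors, E2f3 had 0.09 and 0.15, and E2f6 had 0.58 on replicate 1 and lay just below 0 on replicate 2. Of the transcription-linked kinases, Cdk13, which acts on RNA polymerase II, had -0.42 and -0.08, and Cdk7 had 0.10 and 0.22. Of the remaining members, Cdk2ap2 (0.02 and 0.82) and Cdc37 (0.17 and 0.61) lay above 0 on both arrays.

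**Figure D4:**
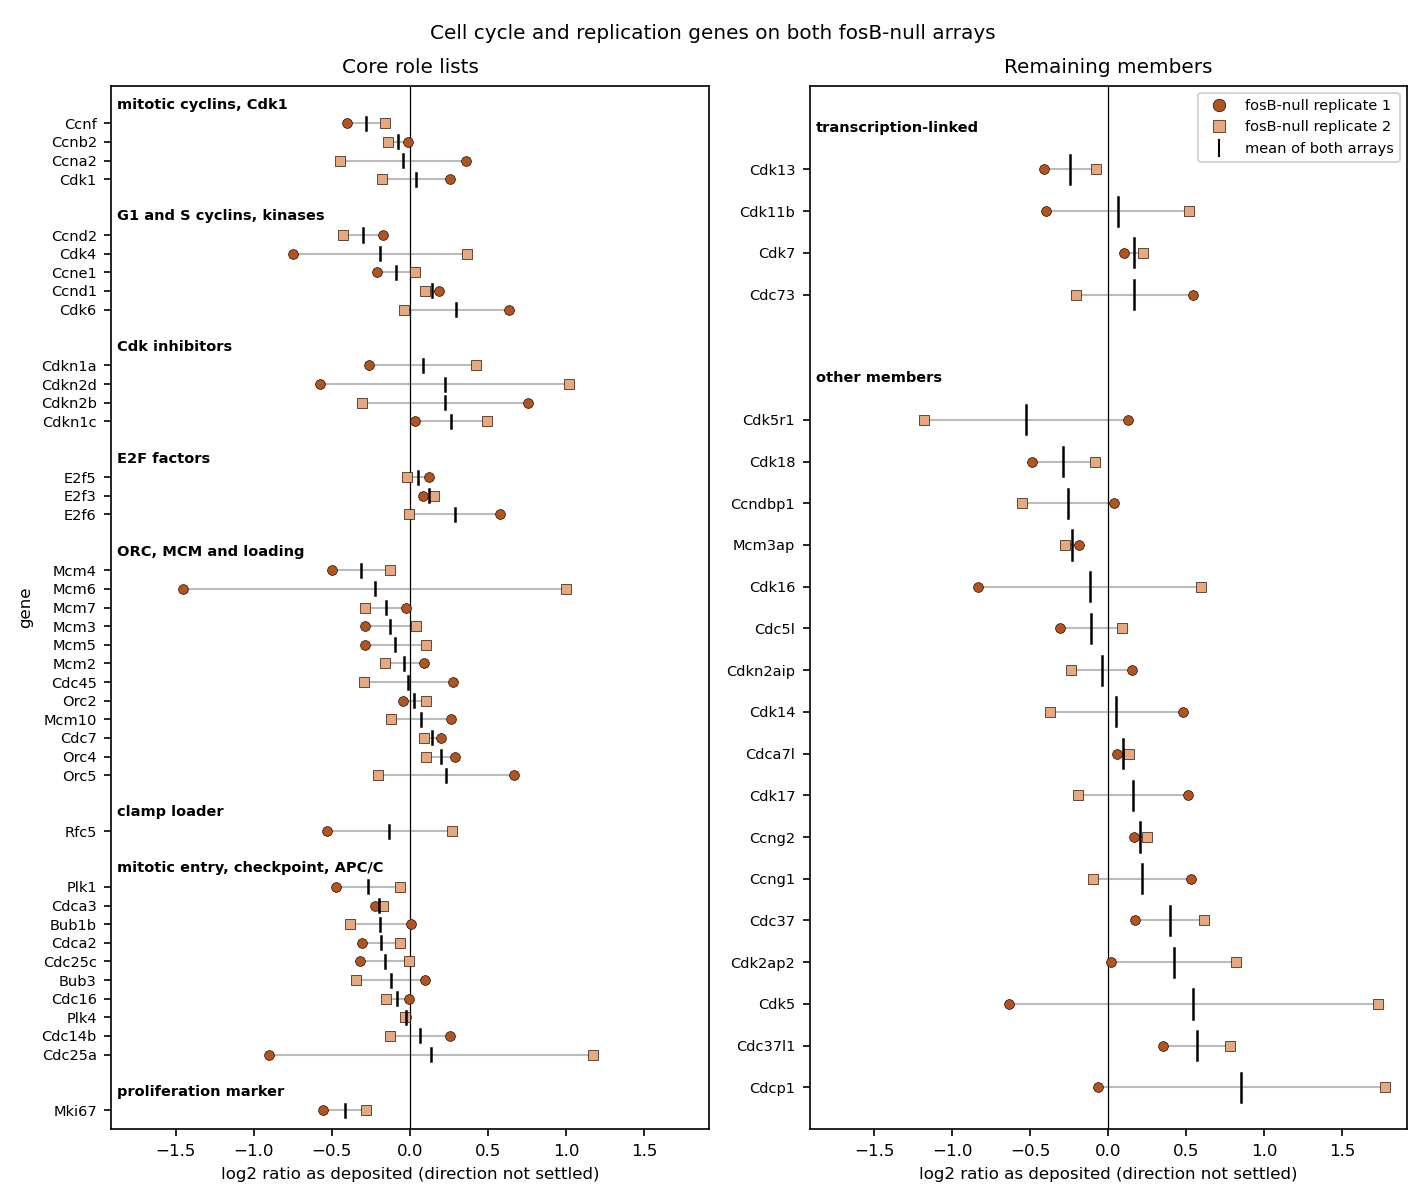
Log2 ratios of the 61 genes on fosB-null replicate 1 (circles) and replicate 2 (squares), with the mean as a bar, grouped by role. The direction is not settled. Mki67 has both arrays below 0, and Mcm6, Cdc25a and Cdk5 span 0 widely.

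The other pathway genes in fosB-null had 21 negative and 4 positive on both arrays of 64 (32.8% and 6.25%), beside 21.9% and 19.5% of all genes, with a median of -0.12. In limma 0 of the 64 passed, and at an unadjusted p under 0.05 there were 2 negative and 1 positive, where 6.82% of all genes were called. Among them, Dbf4, the activator of Cdc7, had -0.30 on both arrays, Prim1 -0.27 and -0.33, and the purine enzyme Gart -0.41 and -0.29. All lay below 0 on both arrays, as did Prim2 (-0.16 and -0.18), Timeless (-0.20 and -0.09), Atic (-0.31 and -0.04) and Dut (-0.08 and -0.20). Aurkb, a mitotic kinase, had -0.13 and -0.49 and its partner Incenp -0.45 and -0.13. The kinesin Kif20a stood at -0.03 and -0.59, and Ube2c, which serves the anaphase-promoting complex, at -0.16 and -0.24. In checkpoint control Rbl1 (-0.18 and -0.65), Mdm2 (-0.22 and -0.43) and Wee1 (-0.30 and -0.11) were below 0. Tyms was on the other side with 0.28 and 0.21, as was Mycn with 0.89 and 0.23. Of the measured markers, 5 of 7 pluripotent, 7 of 17 endoderm and 4 of 9 fibroblast markers were negative on both arrays, and 1, 3 and 0 of them were positive on both, with medians of -0.37, -0.15 and -0.25, and their part was not tested.

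Between the mutants, both of which were set against wild type, 0 of the 61 passed limma as deposited, and 0 passed once fosB-null was turned (0% of all genes in each case). Unadjusted, 9 of 61 (14.8%) had a p under 0.05 as deposited, beside 16.6% of all genes, and 6 (9.84%) with the sign turned, beside 11.1%. Both shares lay near the background. The median of fosBd/d minus fosB-null over the 61 was -0.13 as deposited, and -0.14 with the sign turned, beside -0.02 over all genes in each case. The deposited value became -0.24 without fosB-null replicate 1 and -0.20 without fosBd/d replicate 1, and the turned value became -0.02 without fosBd/d replicate 1. With fosBd/d as deposited, Ccnd2 had the highest difference for either fosB-null sign, 2.25 as deposited and 1.64 with the sign turned, with limma adjusted p-values of 0.275 and 0.428. Ccnb2 stood at -0.53 and -0.69 by the same readings, and Mki67 at 0.37 and -0.47. The fosB-null direction thus decides the side of Mki67 and not that of Ccnd2 or Ccnb2. Were fosBd/d turned too, as the colour words in the labels would have it, all of these differences would change sign.

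Several members had larger values by dye than by mutant. With the turned arrays set back as run, a value that comes from the dyes alone has 1 sign on all 4 arrays. This held on the negative side for 10 of the 61 (16.4%, beside 12.9% of all genes) and on the positive side for 8 (13.1%, beside 12.1%). These shares were near the background. Mcm6, the helicase subunit, lay between -0.83 and -1.45 on all 4 arrays as run. Its dye coefficient in limma was -1.06, against a fosBd/d mean of 0.06. Cdc25a had a dye coefficient of -0.84, Cdkn2d -0.82, Cdk5 -0.71, Cdk16 -0.69 and Cdk4 -0.62. On the other side Ccna2, at 0.37, was the highest of the 8. Cdc25c had 0.89, with fosBd/d replicate 1 at -2.98 as deposited, and its signs as run were not all the same. In contrast, Ccnd2, Ccnd1 and Ccnb2 had dye coefficients of -0.10, 0.02 and 0.06, all smaller in size than their fosBd/d means.

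**Figure D5:**
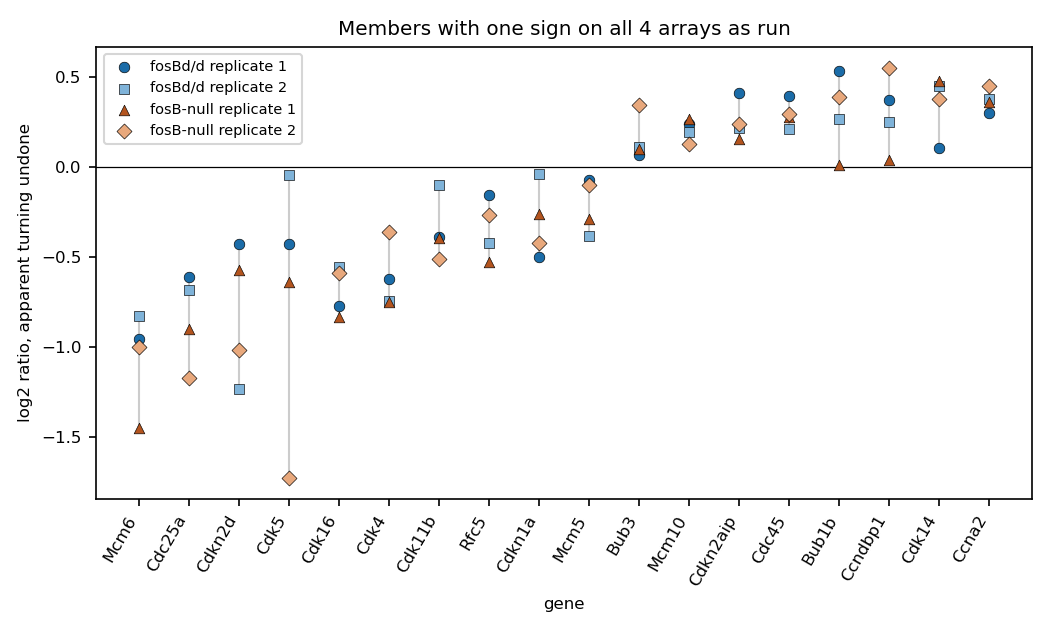
Log2 ratios on all 4 arrays as run, with the turned arrays set back, for the 18 members with 1 sign on all 4 arrays, ordered by dye coefficient. Mcm6 lies between -0.83 and -1.45 on every array, and Ccna2 lies above 0 on every array.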

How the data were processed

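RNA of fosBd/d and fosB-null ES cells was hybridised with wild-type RNA on Agilent mouse cDNA arrays, 2 dye-swapped arrays a mutant. The authors deposited 1 log10 ratio per probe and array (9480 probes), made with Agilent Feature Extraction per the submitters' processing notes. For its version, background correction, dye normalization and filters the entry is: not given in the sources used here. The base of the logarithm is taken from that software's definition. The number of arrays limits the precision. Values were multiplied by the log2 of 10. Probes were named from a platform annotation of 2007 with symbols updated through RefSeq. Of them, 6566 had 1 gene (6496 matched by identifier, 70 kept the older name), 392 several and 2522 none listed. Probes of a gene were averaged.

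limma 3.58.1 (R 4.3.3) was fitted on all 6025 genes and 4 arrays, with 1 mean for each mutant line plus a dye term (1 residual degree of freedom), two-sided, Benjamini-Hochberg adjusted over all genes, threshold 0.05. The dye term follows the apparent turning, which equals the mutant's dye once fosB-null is turned. The step was run on simulated data, where recovery of changed genes was required only at noise far below that fitted to these arrays. The labels give no replicate numbers, so arrays were numbered in accession order and not paired beyond the dye term.

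Members and lists were chosen with earlier results of these data known. Genes named with values are those of each core role list at least 1.3-fold on both arrays of a mutant or at the ends of the list, the 4 largest of the other lists with 1 sign on both arrays, and further members chosen after their values were seen. Promoter windows are RefSeq's on GRCm38.p6. Alternatives covered the dye term, each array left out, the first probe of a gene, exact zeros, scaling, centring, symbols, every probe fitted and the fosB-null sign.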

Additional observations from a re-analysis of the deposited data

Results flagged for a closer look

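The listed genes had every array of fosBd/d on 1 side and every array of fosB-null on the other. The difference of none of them passed limma after adjustment, and the direction of the fosB-null ratio decides which genes are on the list. The share of all genes with such a pattern was not counted. The numbers below therefore do not show that members stand out from other genes. As deposited there were 5, with fosBd/d minus fosB-null at 2.25 for Ccnd2, 0.47 for Ccnf, -0.49 for Ccng2, -0.59 for Ccnd1 and -0.72 for Cdc37l1. With the fosB-null sign turned there were 7, at -0.69 for Ccnb2, -0.64 for Plk1, -0.61 for Cdca3, -0.50 for Mcm7, -0.47 for Cdca2, -0.47 for Mki67 and 0.14 for Cdca7l. Groups of 2 arrays were too small to test for a single outlying array.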

How the results depend on the processing

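No paired analysis by replicate was run, because the labels give no replicate numbers. Arrays of the mutants could be matched only by dye orientation, which the dye term of the fit takes up. In limma 0 of the 61 genes passed after adjustment for either mutant or for the difference, under every alternative that gave a fit. Taking the unadjusted p in its place gave 11 for fosBd/d and 2 for fosB-null. For fosBd/d the 11 became 2 with no dye term, 6 with arrays scaled to 1 spread and 1 with the dye term coded by label, which was chosen after seeing the data. For fosB-null the 2 became 1 with no dye term, 1 with exact zeros left out and 1 with the dye coded by label. With 1 array left out, a fit without the dye term, the counts ranged from 1 to 4 and from 0 to 1. A lone array of a mutant is then assumed to vary like the others.

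On the single array left, 36 to 41 of the 61 were negative and 20 to 24 positive for fosBd/d, and 30 to 35 and 26 to 31 for fosB-null. By construction these counts need 1 array in place of 2. The fosBd/d median ranged from -0.1014 to -0.0666. The median difference ranged from -0.2403 to -0.1454 as deposited and from -0.1932 to -0.0189 turned. The cause was not tested. Scaling moved Ccnd1 to -0.41. The fosB-null median, -0.0104, changed sign to 0.0079 without replicate 2 and was -0.0401 without replicate 1. The precision is limited by 2 arrays a mutant, and signal over background was not analysed here.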
